A study of Rattus norvegicus with 18 samples.

Results

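The genes described here are the cytosolic ribosomal protein genes of the rat, followed across 9 cell populations of the immature testis. They were taken by symbol from the annotation of the arrays: Rpl or Rps followed by a number, or one of the Rplp stalk genes. The rule found 45 genes among 13807 genes that have a probe set of their own, 32 of the large and 13 of the small ribosomal subunit. The rule reads symbols and no signals, though it was set with earlier results of these data known. Among them 5 are paralogues, which are second copies of a ribosomal protein gene with a symbol of their own: Rpl3l, Rpl7l1, Rpl39l1, Rps27l and Rps4y2. Where a gene has several probe sets the brightest was used, which put 43 genes the array type called A here and 2, Rpl28 and Rpl39l1, on the type called B. Another 38 probe sets match several ribosomal protein genes or copies at once and are not named.

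Germ cells and somatic cells from the testes of 22-day-old rats were profiled on 1-colour oligonucleotide arrays, 1 array of each type per population, which makes 18 arrays and no replicate. The labels give no strain, genotype or number of animals. Germ cells that bound laminin and germ cells that did not are both labelled as cultured, with no culture time. Germ cells on STO, a mouse fibroblast line used as a feeder layer, were taken after 1, 5, 10 and 20 days, and germ cells on MSC1 after 20 days. The somatic populations were interstitial cells and tubular somatic cells. Whether feeder cells were removed before the RNA was made is not given in the sources used here. A value is a signal, a linear intensity that the authors scaled to an average of 250 on each array, and a floor of 50 was applied before log2 was taken. Where 9 signals are listed for a gene, the order is laminin-binding, non-binding, STO day 1, day 5, day 10 and day 20, MSC1, interstitial and tubular somatic.

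A ribosome is built from ribosomal RNA and a fixed set of proteins, of which the large subunit carries the peptide bond chemistry and the exit tunnel and the small subunit decodes the message. Cells make these proteins in matched amounts, and their messages are among the most abundant in growing cells. In vertebrates most of these messages begin with an unbroken run of C and T, the terminal oligopyrimidine tract, through which growth signals set their translation. Male germ cells are known for expressing copies of ribosomal protein genes whose parent gene lies on the X chromosome, which is silenced during meiosis.

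The starts of a few genes are shown because this run is the one sequence feature known for the family as a whole, and because the genes picked span the different patterns described further on. Of the 45 genes 38 had an entry in the RefSeq promoter table of the GRCr8 build. Each sequence covers the last 15 bases before the annotated start and the first 15 after it, with the longest run of C or T near the start in capitals.

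Rpl34 (chr2:221962269-221962298, minus strand): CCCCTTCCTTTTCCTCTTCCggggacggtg
Rps24 (chr16:96502-96531, plus strand): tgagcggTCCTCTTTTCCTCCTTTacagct
Rps15a (chr1:181860270-181860299, minus strand): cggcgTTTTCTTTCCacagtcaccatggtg
Rpl4 (chr8:73566462-73566491, plus strand): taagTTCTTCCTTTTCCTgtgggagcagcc
Rplp0 (chr12:46718376-46718405, minus strand): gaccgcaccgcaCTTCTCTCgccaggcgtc
Rps4y2 (chr4:183000898-183000927, plus strand): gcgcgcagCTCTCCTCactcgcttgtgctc
Rpl39 (chrX:121195882-121195911, minus strand): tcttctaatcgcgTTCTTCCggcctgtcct
Rpl39l1 (chr10:5966607-5966636, minus strand): actgccaggccgTCCCgctatcctggtgtg
Rpl18 (chr1:105325255-105325284, plus strand): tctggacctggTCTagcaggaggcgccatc
Rpl6 (chr12:41011676-41011705, minus strand): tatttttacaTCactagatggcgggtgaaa

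The run was 20 bases long at Rpl34, 17 at Rps24, 14 at Rpl4, 10 at Rps15a and 8 at both Rplp0 and Rps4y2. It was 7 at Rpl39 and only 4 at its paralogue Rpl39l1, 3 at Rpl18 and 2 at Rpl6. A run of at least 8 pyrimidines, C or T in any order on the strand of the gene, came within 5 bases of the annotated start in 19 of 38 members, or 50%. The share was 8.27% of all 18999 protein-coding genes in the table and 8.40% of the 11273 that are on the arrays. Genes for the proteins of the mitochondrial ribosome, which is built separately, held such a run in 4 of 60 cases, or 6.67%. An annotated start may differ from the start used in these cells by some bases, and a short or displaced run in this window says only that these letters are not there.

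Most members gave bright signals in every population. Of the 45 members, 42 lay above the floor of 50 in all 9 libraries, 37 had a geometric mean signal of at least 250 and 33 of at least 1000. Over all genes 9.69% had a mean of at least 1000, against 73.3% of the members. A probe set's brightness depends on its sequence as well as on the message, so signals are compared here between libraries for one gene and not between genes. The exceptions at the floor were Rpl30, whose probe set read 22.3 to 55.8 in all 9 libraries and so gives no measure of this large subunit protein, and the paralogues Rpl3l, at 8.70 to 131, and Rps27l, at 46.6 to 160.

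Among the 37 members with a mean of at least 250, the highest library exceeded the lowest by a median of 3.05-fold, against 4.15-fold for all genes with such a mean. The steadiest were Rps6, the small subunit protein that S6 kinase phosphorylates, at 1.56-fold, Rps3a at 1.60-fold and Rpl3, a core protein of the catalytic centre, at 1.76-fold. Rpl7a, at 1.99-fold, and Rpl5, a partner of 5S ribosomal RNA, at 1.995-fold, came next. These 5 are among 13 members that reached at least 0.5 of the highest unscaled signal on a type A array, where an array may respond less than in proportion. The widest spans over all members were 32.5-fold for Rpl39l1, 7.58-fold for Rps4y2, 6.78-fold for Rpl28, 5.84-fold for Rpl18, 5.65-fold for Rpl34 and 5.40-fold for Rps29. They were followed by Rpl21 at 4.92-fold, Rps3 at 4.73-fold, Rps9 at 4.33-fold and Rpl24 at 4.27-fold.

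The members tended to be high or low in the same libraries. Taking each gene's signal against its own mean over 9 libraries on the log2 scale, the median member stood at 0.59 in laminin-binding cells, 0.05 in non-binding cells, 0.22 on MSC1, 0.22 in tubular somatic cells and -0.12 in interstitial cells. On STO it stood at -0.32 on day 1, 0.14 on day 5, -0.35 on day 10 and -0.43 on day 20. The medians of all genes stayed between -0.07 and 0.01. Those of the 1338 genes with a mean of at least 1000 were 0.17 in laminin-binding and 0.21 in non-binding cells. On STO they were 0.11 to 0.14, on MSC1 -0.10, and -0.37 and -0.19 in interstitial and tubular somatic cells. The median member thus lay above these bright genes in interstitial cells and below them in non-binding cells. Of the 37 members with a mean of at least 250, 16 were highest in laminin-binding cells, while 13 were lowest on STO day 20 and 9 on STO day 10. Across the 9 libraries, which share their scaling over all probe sets, 25 of these 37 correlated at over 0.5 with the median of the other members. The same counts were not made over other genes, so whether they are particular to the members was not tested.

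**Figure D1:**
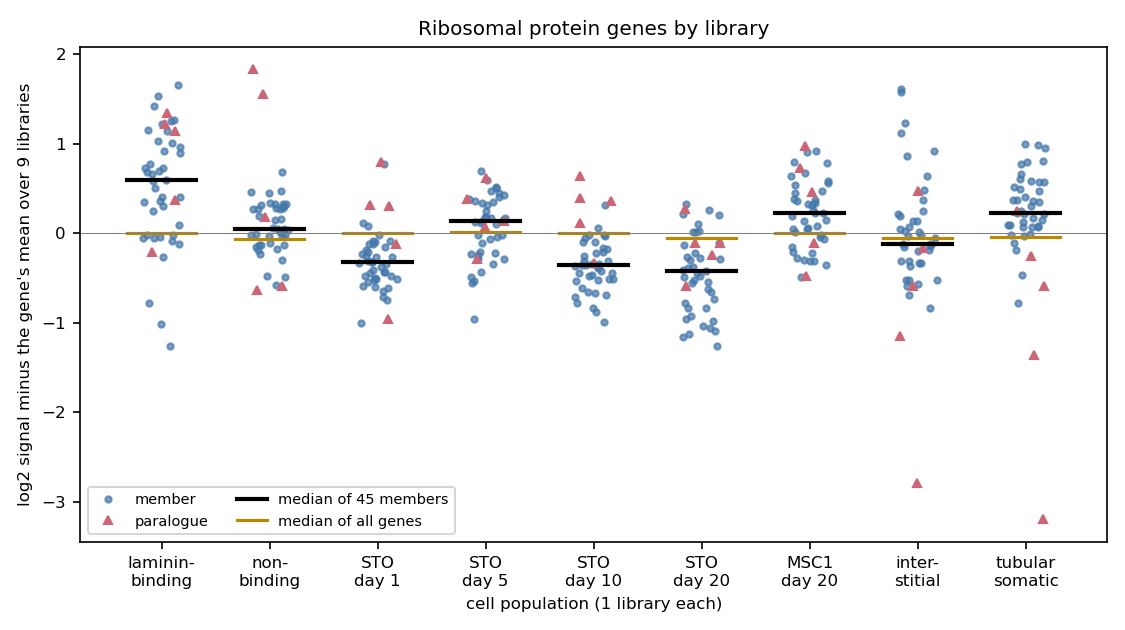
Level of each of the 45 ribosomal protein genes in each of 9 populations, 1 library each, as log2 signal minus the gene's own mean over the libraries. Circles are members, triangles the 5 paralogues, black lines the median of the members and ochre lines the median of all genes. The black line is highest in laminin-binding cells, at 0.59, and lowest on STO day 20, at -0.43.

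Array properties are given beside this common level. The scale factor that brought a type A array to its average ran from 0.391 for interstitial cells to 1.512 for STO day 5, and the 3 libraries with a factor above 1 (laminin-binding at 1.028, MSC1 at 1.098 and STO day 5) had member medians above 0, but so did tubular somatic cells, at a factor of 0.584, and non-binding cells, at 0.582. Over 9 libraries the member median correlated with the log2 scale factor at r = 0.52 (rho = 0.35), and after quantile normalization at r = 0.23 (rho = 0.13). Since the highest unscaled signal on type A was 14712 to 18766 on every array, the highest scaled signal differed, from 6189 for interstitial cells to 22245 for STO day 5. In interstitial cells 11 members reached at least 0.5 of that highest signal and in tubular somatic cells 10, against 6 in laminin-binding cells and 0 on STO day 5. The Gapdh signal ratio of 3′ to 5′ probe sets, a sign of RNA length after amplification, was 5.63 and 7.07 on type A in the sorted, 7.94 and 11.2 in the somatic and 14.7 to 29.7 in the feeder-grown libraries. On type B the tubular somatic library, at 16.7, exceeded STO day 20. The same ratio for actin on type A was 8.91 and 21.6 in the sorted, 25.8 to 94.3 in the feeder-grown and 41.2 and 67.3 in the somatic libraries. Both sorted libraries lay below all others in it, but laminin-binding cells, at 21.6, were close to MSC1 at 25.8 and STO day 5 at 26.8. The part of these properties in the member level was not tested.

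**Figure D2:**
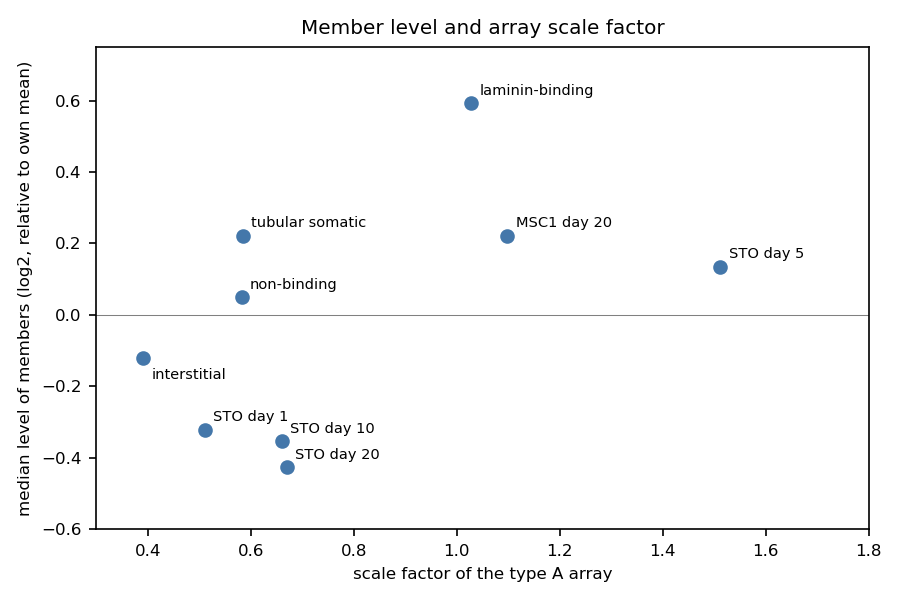
Median level of the 45 members in each library (log2, relative to each gene's mean) against the scale factor of that library's type A array, 1 point per population. The 3 libraries with a scale factor above 1 lie above 0, and interstitial cells, with the smallest factor of 0.391, lie at -0.12.

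The populations carried the markers of their labels in part. The summed signal of 5 germ cell markers (Sycp3, Tex14, Tex15, Mov10l1 and Tdrd1) was 13602 to 31753 in the 7 germ cell libraries and 755 to 783 in the somatic ones. Of the defining Sertoli markers, Sox9 read at most 34.5 and Amh at most 55.2 in any library, while the sum of 8 Sertoli markers was 11492 in tubular somatic and 5804 in interstitial cells against 768 to 1871 in germ cell libraries. Of the 8 Sertoli markers 5 were called higher in tubular somatic than in interstitial cells and 0 lower, but Aldh1a1 read 2507 and 3221. The sum of 6 Leydig markers was 5440 in interstitial cells and 320 to 922 elsewhere. Of these 6, 3 were called higher in interstitial than in tubular somatic cells, but Insl3 read 36.6 in interstitial cells. In all sums of marker signals a signal under 50 counts as 50, so that low sums hold values at the floor. In these bulk samples fewer cells of a type and less RNA per cell cannot be told apart.

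Rpl39l1 had the largest difference between libraries of any member. It is the paralogue of the X-linked gene Rpl39, whose small protein lines the exit tunnel of the large subunit, and the equivalent gene in mouse and human is known for its expression in testis. On type B its 9 signals were 3520, 4911, 1718, 2125, 2152, 1667, 2719, 201 and 151. All 7 germ cell libraries were above both somatic libraries, and the highest of them was that of the non-binding cells. The mean of the germ cell libraries was 14.4-fold that of the somatic libraries, and laminin-binding cells exceeded the brighter somatic fraction 17.5-fold. The 5 feeder-grown libraries were all below both sorted libraries, 2.04-fold on the class means. Spermatocyte markers, whose summed signal was 21139 in non-binding cells and 1093 in laminin-binding cells, were also highest in the library where Rpl39l1 peaked. Their next highest sum, 6323, was on STO day 20, where Rpl39l1 had its lowest germ cell signal, 1667. The part of these markers in the level of Rpl39l1 was not tested.

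Rps4y2, annotated as a protein-coding S4 gene on chromosome 4, went the same way at lower signals. It read 384, 512, 214, 143, 228, 161, 125, 78.7 and 67.6. Every germ cell library lay above both somatic libraries, as for Rpl39l1, but the germ cell mean did not reach the signal of 250 that a call asks for. Laminin-binding cells exceeded the brighter somatic fraction 4.88-fold, and the feeder-grown libraries lay 2.61-fold below the sorted ones.

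Rpl39 itself, the one X-linked member with a probe set of its own, differed in the opposite sense between germ cells and soma. Its signals were 216, 131, 72.1, 99.6, 104, 100.1, 225, 224 and 252. The 4 STO libraries were lowest, laminin-binding cells and MSC1 lay near the somatic libraries, and the classes overlapped. The class difference was -0.93 on the log2 scale and gave no call, since its brighter side was under 250.

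**Figure D3:**
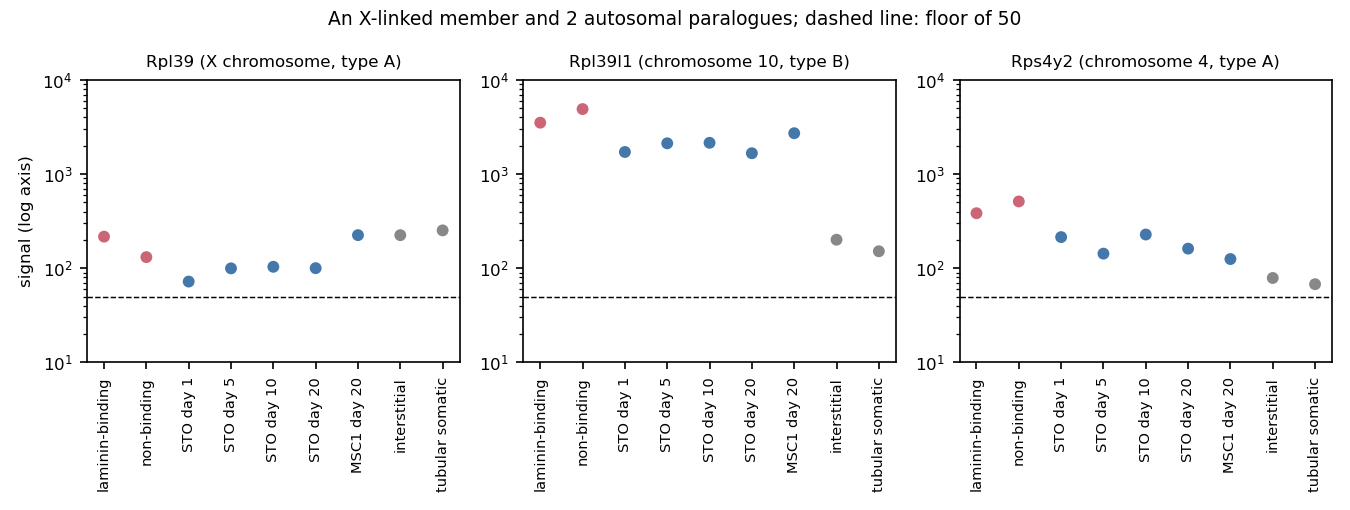
Signal on a log axis in 9 libraries for Rpl39 (type A), Rpl39l1 (type B) and Rps4y2 (type A), with sorted germ cells in red, feeder-grown germ cells in blue and somatic cells in grey. Rpl39l1 falls to 201 and 151 in the somatic libraries and Rps4y2 to 78.7 and 67.6. Rpl39 is highest in tubular somatic cells, at 252, while interstitial cells, at 224.4, lie beside MSC1, at 224.6.

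Of the other paralogues Rpl7l1 was the one with a clear difference. It read 1175 in laminin-binding cells and 323 to 546 in the 8 other libraries, so that a single library stood apart. A second probe set of Rpl7l1 read 299 in laminin-binding cells and 285 to 595 elsewhere and did not show this peak. Rpl3l, which in mouse and human is a muscle paralogue, read 8.70 and 12.3 in the somatic libraries, under the floor, and 29.7 to 131 in germ cells. Rps27l, a paralogue of Rps27, was highest on MSC1 at 160.

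Laminin-binding is used to enrich stem cells among spermatogonia, and the comparison with non-binding cells asks how the bound cells differ. Here and in the other pairs a gene was called where the folds reached 2 and the brighter side a signal of 250. With 1 library per population there was no replicate check and no p-value. The standard deviation from array to array, given by 100 probe sets present on both types and none of them a member, was 0.25 on the log2 scale over all pairs, or 1.40-fold at 2 deviations, and leaves out the spread of animals, cultures and amplification. Of the 45 members 7 were called higher in laminin-binding cells and 2 lower, where 10.5% of all genes were called higher and 9.72% lower. The median member was 0.40 higher on the log2 scale against 0 for all genes and -0.02 for the 1338 genes with a mean of at least 1000, and 32 members were higher and 12 lower. The medians of large and small subunit members were 0.41 and 0.40. Markers of germ cell stage and of other cells differed between the same libraries. Of 7 undifferentiated spermatogonia markers 4 were called higher in laminin-binding cells and 0 lower, at a median log2 fold of 2.45, among them Ret, at 707 against 87.3. Of 6 spermatocyte markers 5 were called lower and 0 higher, at a median of -4.78. Of the 5 germ cell markers 4 were called lower and 0 higher, among them Tdrd1 at 2836 against 12405. Of 8 Sertoli markers 2, Cldn11 and Dhh, were called higher and 0 lower. Of 8 fibroblast and matrix markers 0 were called higher and 1 lower. The part of all these markers in the difference of the members was not tested.

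The largest difference was that of Rps29, a zinc-binding protein of the small subunit head. It read 10831, 2298, 3159, 4884, 3573, 2838, 4116, 2129 and 2007. Only the laminin-binding library stood apart, 4.71-fold over non-binding cells. Rpl18, a large subunit protein, was 2.75-fold higher at 7102 against 2579, with 1216 to 2989 in the remaining libraries. Rpl34, the large subunit gene with the longest run shown, was 2.62-fold higher at 5186 against 1980. Rpl41, which encodes an unusually short peptide of the large subunit, was 2.39-fold higher, Rpl13a 2.20-fold, Rps28 2.12-fold and the paralogue Rpl7l1 3.63-fold. Rpl13a, a large subunit protein, and Rps28, of the small subunit, lost their calls after quantile normalization, at 0.74 and 0.84 on the log2 scale.

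Rpl4 and Rpl6, both large subunit proteins, ran against the family. Rpl4, which reaches into the exit tunnel, read 1532, 3885, 3260, 3892, 3022, 3859, 3188, 2832 and 3252. Laminin-binding cells were the lowest library by far, 2.54-fold under non-binding cells, while the other 8 spanned 2832 to 3892. Rpl6 read 1265, 2717, 3267, 4872, 2688, 2249, 5184, 3063 and 4011, again lowest in laminin-binding cells and 2.15-fold under non-binding cells. With Rplp0 these were the 3 bright members that correlated below 0 with the median of the others, Rplp0 at -0.78, Rpl4 at -0.60 and Rpl6 at -0.15. Next in this direction, and not called, came Rpl7 at -0.71 on the log2 scale, Rpl39l1 at -0.48 and Rps4y2 at -0.42. A second, dimmer probe set of Rpl7 went the other way, at 314 in laminin-binding and 112 in non-binding cells.

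**Figure D4:**
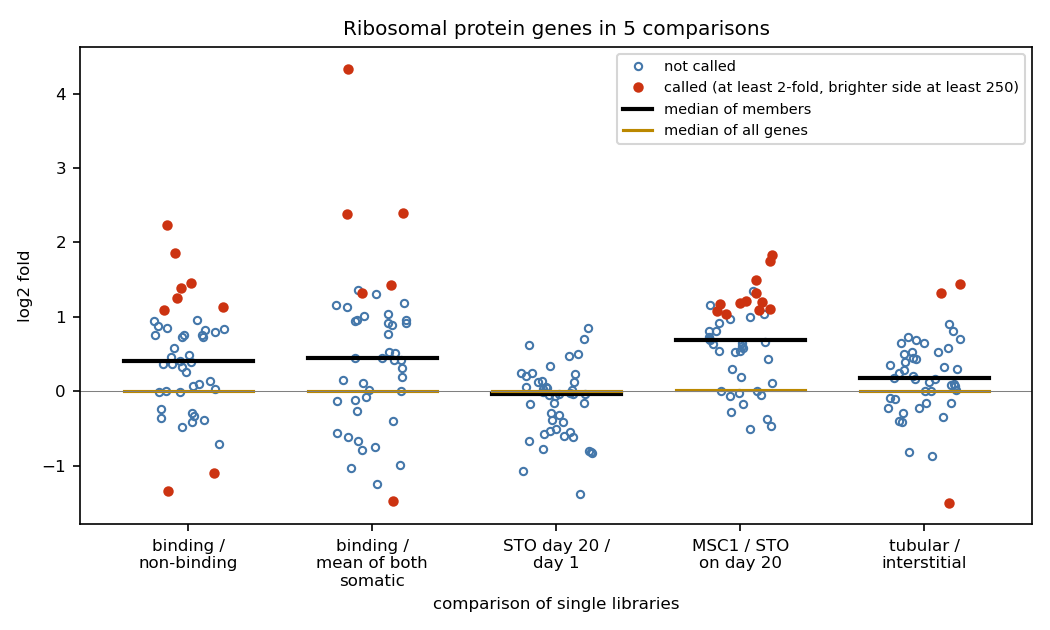
Log2 fold of each of the 45 members in 5 comparisons of single libraries, with called members filled. Black lines are the median of the members and ochre lines the median of all genes. The members' median is furthest from that of all genes for MSC1 against STO on day 20, at 0.68 against 0.02, where 12 members are called and all of them are higher.

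Against both somatic fractions 5 members were called higher in laminin-binding cells and 1 lower, beside 9.49% and 6.64% of all genes. The median member was 0.45 higher, against 0 for all genes and 0.46 for genes with a mean of at least 1000, so that bright genes of all kinds stood as high. It was 0.16 after quantile normalization. The calls were Rpl39l1 at 17.5-fold, Rps29 at 5.09-fold, Rps4y2 at 4.88-fold, Rpl7l1 at 2.61-fold and Rpl18 at 2.43-fold over the brighter fraction, of which 3 are paralogues, and Rpl6 was called lower at 2.42-fold under the dimmer. Uncalled members far to the lower side of the mean of the fractions were Rpl28 at -1.25, Rpl24 at -1.03, Rpl4 at -0.99 and Rpl7 at -0.79 on the log2 scale. The second probe set of Rpl7 went the other way here too, at 314 against 156.6 in interstitial and 164.5 in tubular somatic cells.

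The class comparison asked which members separated all 7 germ cell libraries from both somatic libraries by at least 1.5-fold on the class means. There were 2 such members higher in germ cells, Rpl39l1 and, at 1.93-fold, Rps29, and 3 lower, beside 10% and 8.29% of all genes. Rpl28, a large subunit protein read on type B, was 2.92-fold lower, with 57.4 to 146 in germ cells and 389 and 222 in interstitial and tubular somatic cells. Rps3, the small subunit protein at the entry of the message channel, was 2.34-fold lower in germ cells. Its signals were 2504, 1677, 1310, 1710, 1367, 826, 2954, 3732 and 3912, so that the MSC1 library came nearest to the somatic ones. Rpl24, a bridge between the subunits, was 2.32-fold lower, at 122 to 290 against 520 and 409. Its second, dim probe set on type B overlapped between the classes, at 23.8 to 125 in germ cells and 85.8 and 142 in somatic cells. Rps24 at -1.16 and Rpl14 at -1.07 on the log2 scale overlapped between the classes or missed the call, as did Rps28 at 0.42 and Rpl3l at 0.76 in the other direction. The median member was at -0.14, against 0.03 for all genes and 0.42 for genes with a mean of at least 1000, and it turned to 0.069 without the tubular somatic library. Leaving that library out, 5 members were called higher and 5 lower, and without the laminin-binding library 6 were called lower. All genes were not counted in these 2 settings.

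Between the somatic fractions 2 members were called higher in tubular cells, Rpl37a at 2.72-fold and Rps15a at 2.50-fold, and 1 lower, Rpl14 at 2.82-fold, beside 7.1% and 8.02% of all genes. Rpl37a, a zinc-binding large subunit protein, read 3743 in tubular and 1374 in interstitial cells, the lowest of its 9 values. Rps15a, of the small subunit, read 4110 in tubular and 1642 in interstitial cells. Rpl14, of the large subunit, read 1008 in interstitial cells and 237 to 359 in the 8 others, but its second, dim probe set stayed at 4.10 to 82.1 and read 4.10 there. Not called were Rpl13a at 0.90, Rpl27a at 0.81 and Rpl22 at 0.73 on the log2 scale, and in the other direction Rps9 at -0.87, Rpl28 at -0.81, Rpl39l1 at -0.41 and Rpl12 at -0.39. The median of the members was 0.17 and became -0.06 after quantile normalization.

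**Figure D5:**
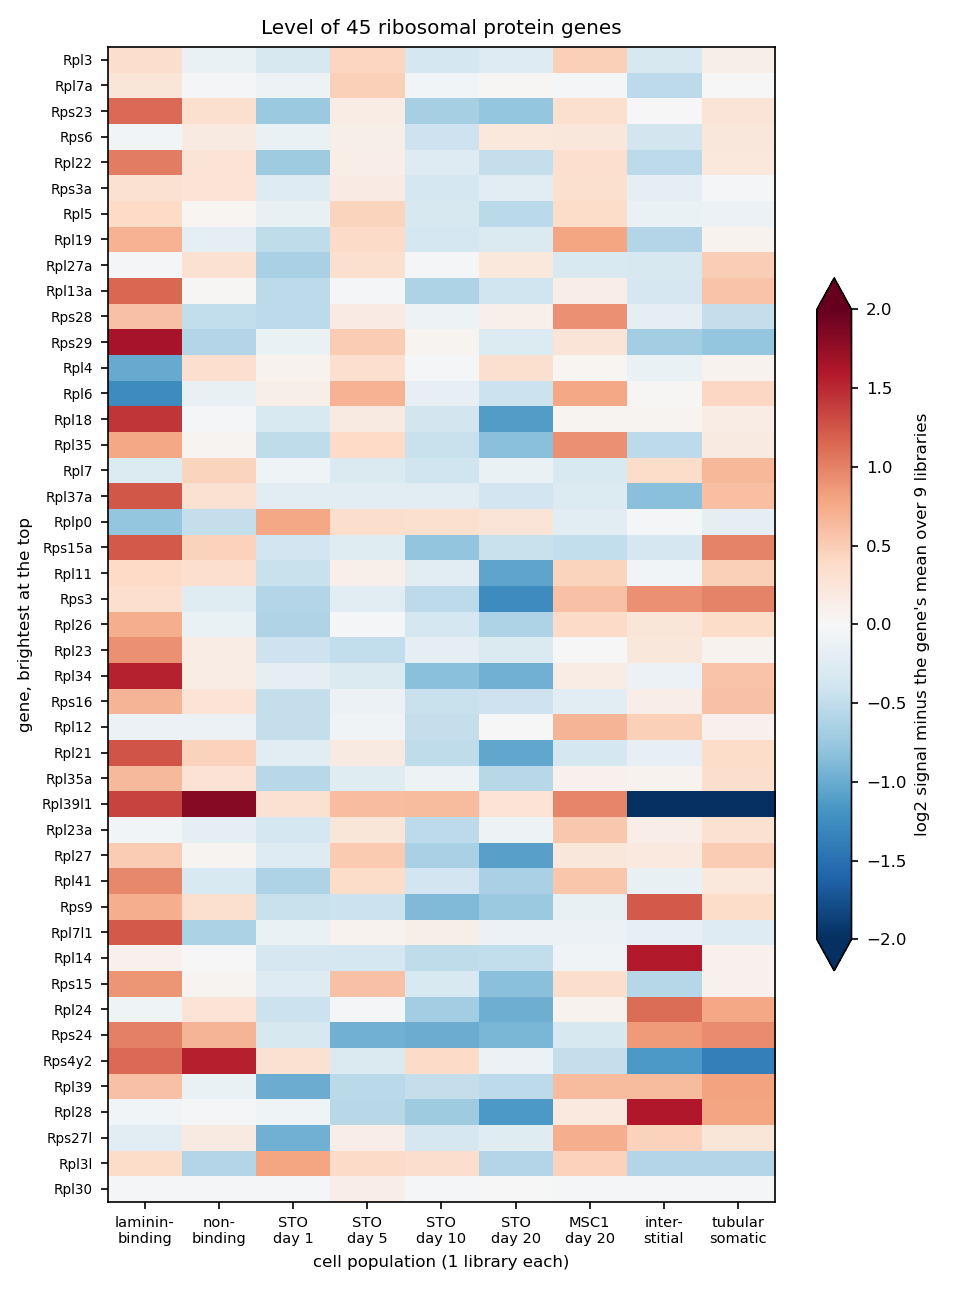
Level of each of the 45 genes (brightest probe set at the top) in 9 libraries, as log2 signal minus the gene's mean, from blue (low) to red (high), with colours capped at 2 in either direction. In the laminin-binding column 33 genes are above their mean, while Rpl4, Rpl6 and Rplp0 are blue, and 39 genes on STO day 10 and 36 on day 20 are below their mean.

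Germ cells on feeders differed from sorted germ cells in the same direction for most members. All 5 feeder-grown libraries lay below both sorted libraries by at least 1.5-fold on the class means for 12 members, and above both for 1, beside 4.44% and 4.46% of all genes. The median member was -0.47 on the log2 scale, against 0.02 for all genes and -0.06 for genes with a mean of at least 1000, and 37 members were lower and 8 higher. The 12 comprised 6 large and 6 small subunit genes. They were 10 without the laminin-binding library and became 20 without the non-binding library, settings in which all genes were not counted. Under 75th percentile scaling 16 members were lower, beside 789 of all 13807 genes, and after quantile normalization 8, beside 624. The main setting had 613 of all genes lower. The sorted libraries are 2 in number, and the higher Gapdh and actin ratios of the feeder-grown libraries given above split along the same line. Group and RNA length cannot be told apart here.

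Rps24, a small subunit protein, had the largest difference, at 2.92-fold. It read 438, 349, 174, 112, 109, 115, 175, 394 and 419, so that both sorted and both somatic libraries stood above every feeder-grown one. Its other probe set, at 86.3 to 270 and highest on MSC1, did not show this. Rps15a read 4803, 2847, 1583, 1745, 1199, 1515, 1465, 1642 and 4110, 2.48-fold lower on feeders, with interstitial cells at the level of the feeder-grown cells. Rpl34 read 5186, 1980, 1574, 1468, 999, 917, 1973, 1643 and 2658, 2.41-fold lower, with MSC1 just under the non-binding cells. Rpl21, a large subunit protein, was 2.39-fold lower at 713 to 1656 against 3509 and 2020. Rps23, a protein of the decoding centre, was 2.10-fold lower at 3559 to 7589 against 13424 and 7614, the upper end again being MSC1. Rps9 at 2.08-fold, Rpl37a at 2.06-fold, Rps16 at 1.76-fold and the paralogues Rps4y2 and Rpl39l1 were also lower, and the remaining pair were 1.75-fold and 1.67-fold lower.

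Rplp0, the base of the acidic stalk that recruits elongation factors and the only stalk gene measured, was the single member called higher on feeders, at 1.90-fold. It read 1237, 1517, 3605, 2697, 2636, 2527, 1832, 2064 and 1858. STO day 1 was the highest library and the 2 sorted ones were the lowest, unlike the median member, which was higher in both sorted libraries than on STO days 1, 10 and 20. Rpl6 at 0.90, Rpl4 at 0.49, Rpl3l at 0.39 and Rpl23a at 0.08 on the log2 scale were the next in this direction and were not called.

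Time on STO brought no call between its ends. From day 1 to day 20 no member was called, 0 higher and 0 lower, beside 5.59% and 7.78% of all genes, and the median member was at -0.04 on the log2 scale. The most different were Rpl27a at 0.85, Rps27l at 0.71, Rps28 at 0.62, Rpl12 at 0.50 and Rpl39 at 0.47, and on the other side Rpl28 at -1.07, Rpl27 at -0.83, Rpl18 at -0.81 and Rpl21 at -0.80. Rpl3l, which ended under the floor, went from 131 to 29.7. Over all 4 days, limma's linear model on log2 culture day tested 40 members among 16178 probe sets. After Benjamini-Hochberg adjustment 0 members and 0 probe sets passed, and at an unadjusted p under 0.05 there were 0 members and 9.39% of all probe sets. The member with the smallest adjusted p in limma's test was Rpl27a, with a slope of 0.19 ± 0.10 (SE, n = 4 libraries) per doubling of time and an adjusted p of 0.59. The error of this fit reflects how far the 4 days scatter around a line and not how repeated cultures would differ.

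The fit without day 1 gave other calls. The median member went from -0.32 on day 1 to 0.14 on day 5 and then to -0.35 and -0.43. Without day 1, where 1 residual degree of freedom remains, 3 of the 40 members tested fell in limma's model and 0 rose. The adjusted p-values from limma's model were 0.018 for Rpl27, 0.030 for Rpl18 and 0.037 for Rpl35. Of all 16178 probe sets 934 fell and 877 rose, so that such falls were not particular to the members. The STO day 5 array had the largest scale factor of the series, as given above.

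On day 20 most members were higher on MSC1 than on STO. Of the 45 members 12 were called higher on MSC1 than on STO and 0 lower, beside 8.37% and 7.12% of all genes. The median member was 0.68 higher, or 1.61-fold, against 0.02 for all genes and -0.17 for genes with a mean of at least 1000, and 37 members were higher and 8 lower. Large and small subunit members gave medians of 0.72 and 0.58. Under 75th percentile scaling 8 members were called higher, beside 886 of all 13807 genes, where the main setting had 1155. Rpl34 and Rps23, with Rpl19 and Rpl24, which are named after their values were seen, then lost their calls at 0.93 to 0.998 on the log2 scale. The type A arrays of MSC1 and STO day 20 had scale factors of 1.098 and 0.670 and Gapdh ratios of 27.4 and 14.7. Their actin ratios differed in the other direction, at 25.8 and 37.0. The part of these array properties was not tested.

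Rps3, at the message entry, had the largest difference, 3.57-fold, at 2954 against 826. The STO day 20 signal was the lowest of its 9. Rpl35, beside the exit tunnel, was 3.37-fold higher at 4961 against 1474, which were the highest and the lowest of its 9 values. Rpl11, which with Rpl5 and 5S ribosomal RNA forms a particle that can bind the p53 regulator Mdm2, was 2.83-fold higher at 2769 against 979, while Rpl5 itself read 6773 against 3593 and was not called. Rpl27 was 2.49-fold higher, Rpl41 2.32-fold, Rpl6 2.31-fold, Rps15 2.28-fold, Rpl18 2.25-fold, Rpl34 2.15-fold and Rps23 2.13-fold, and 2 more members were 2.12-fold and 2.06-fold higher. The last of these, Rpl24, read 250.3 on MSC1, just over the limit of 250, against 121.7 on STO. Its second, dim probe set on type B went the other way, at 23.8 against 125.4. The lowest on this scale were Rpl27a at -0.51, Rplp0 at -0.46, Rps4y2 at -0.37, Rpl4 at -0.28 and Rpl7 at -0.17 on the log2 scale, none of them called.

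Markers of germ cell stage and of other cells differed between MSC1 and STO on day 20. Of 7 undifferentiated spermatogonia markers 5 were called higher on MSC1, with a median log2 fold over the list of 2.68, and 1, Epcam, lower. Ret read 1145 on MSC1 and 48.6 on STO, Nanos3 350 and 21.6, Snap91 341 and 25.8 and Gfra1 376 and 58.6. The summed signal of 8 Sertoli markers was 1871 on MSC1 and 832 on STO day 20, that of 8 macrophage markers 2364 and 1527, and that of 8 fibroblast and matrix markers 5471 and 5463, with Col1a1 at 693 and 540. The STO library of day 20 had more spermatocyte marker signal, a sum of 6323 against 1255. Their part in the difference of the ribosomal protein genes was not tested.

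Genes that work with the ribosome were followed for comparison. Rpsa, a small subunit protein also known as the laminin receptor precursor and outside the symbol rule, read 8709 in laminin-binding and 3105 in non-binding cells and was called higher, with 2486 to 4584 in the remaining libraries. Rack1, a scaffold on the small subunit, read 2508 and 1565 in these libraries and was not called. Among 6 elongation factors Eef1d was called higher in laminin-binding cells, at 3538 against 1511, and Eef2, the translocation factor, lower. Eef2 read 158 in laminin-binding cells and 852 to 1953 in all others. Of 24 initiation factors 2 were called higher, Eif1ax and Eif4a1, and 7 lower, with a list median of -0.39 on the log2 scale against 0.40 for the ribosomal protein genes.

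The 37 genes of ribosome biogenesis, which make and process ribosomal RNA, followed another order over the libraries. Their median level was 0.35 in laminin-binding and 0.09 in non-binding cells, 0.31 on STO day 1, 0.30 on day 5, 0.24 on day 10 and -0.09 on day 20, -0.13 on MSC1, and -0.77 and -0.49 in interstitial and tubular somatic cells. Between germ and somatic libraries 15 of them were higher and 0 lower, with a median of 0.77, led by Polr1b, Dkc1, Bop1 and Wdr43, where the median of the ribosomal protein genes was -0.14. On MSC1 against STO on day 20 the biogenesis genes gave 3 calls higher and 2 lower at a median of 0.16, where the ribosomal protein genes gave 12 and 0. The 73 genes of mitochondrial ribosomal proteins gave 7 and 3 there with a median of 0.21. In laminin-binding against non-binding cells the mitochondrial list had 11 called higher and 5 lower at a median of 0.18. No test of the difference between these lists was made.

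Members with and without a pyrimidine run of at least 8 near the start were set side by side over the 38 genes with a sequence. In laminin-binding against non-binding cells the 19 with a run had a median log2 fold of 0.73 and the 19 without 0.40. On MSC1 against STO the order was the other way, at 0.64 and 0.97, and in feeder-grown against sorted cells the medians were -0.57 and -0.46. Both kinds thus had medians on the same side in each of these 3 comparisons. Rpl4 and Rplp0, which ran against the family in laminin-binding cells, hold runs of 14 and 8 bases in the sequences shown, but Rpl6, which did so too, holds a run of 2. Of those that followed the family Rpl18 holds a run of 3 and Rpl34 one of 20. These genes were picked to span the patterns, and the part of run length in the differences was not tested.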

How the data were processed

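Per the labels, 50 ng of total RNA per population went through 2 rounds of amplification, and detection calls used a Tau of 0.015. Those calls were not used. The deposited values are intensities, 1 signal per probe set, which the authors scaled to an average of 250 on each array, per the labels. The sources used here do not give the software, the background treatment or the build behind the probes. The trimmed mean of each array was checked at 250.04 to 250.12.

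Type A holds 15923 and type B 15333 probe sets, of which 57 controls on each were left out. The types were scaled separately, so no level was set across them. Genes were named from the platform annotation, from probe sets with 1 gene only, and positions are those of RefSeq GRCr8, where 43 of 45 members matched. Signals were raised to 50 and taken to log2. A call asked for at least 2-fold with the brighter side at 250 or more, against each of 2 somatic fractions where both were used. Class calls asked for libraries that do not overlap and 1.5-fold on the class means of log2 signals. The named genes were the called members, at most 10 per direction, or the 5 largest where fewer than 5 were called, with all paralogues, X-linked and stalk members, the widest 10 and steadiest 5 spans, and at most 4 per other list. Members, lists and tests were chosen with earlier results of these data known. The culture trend used limma 3.58.1 in R 4.3.3 where the mean signal reached 100, with the variance trend on, and was tested on simulated data. Other steps used Python 3.11.15 with pandas 2.3.3 and numpy 2.4.6. Alternatives were 75th percentile scaling, quantile normalization, floors of 25 and 100, the mean over probe sets, type A preferred, probe sets with a plain name ending, a higher fold minimum, members without paralogues and leaving out 1 library. A further one, members under 0.5 of the highest unscaled signal, was chosen after seeing the data. The number of arrays limits the precision.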

Additional observations from a re-analysis of the deposited data

How the results depend on the processing

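Of 464 values of named members under the alternatives, 413 kept direction and call, 50 kept the direction and lost the call, and 1 turned: Rps24 in feeder-grown against sorted cells went to 0.068 on the log2 scale with probe sets of plain name ending, where its dimmer probe set is read. Quantile normalization gave 1 member lower in laminin-binding than non-binding cells (of all 13807 genes 1284) and 1 member higher in germ than somatic libraries (1438). It gave a median of 0.16 for laminin-binding against both somatic fractions. With the mean over probe sets 0 members were lower in tubular than interstitial cells (927). With a fold minimum of 3 (2 for classes), laminin-binding cells had 2 members higher and 0 lower against non-binding cells (of all 13807 genes 670 and 731) and 3 higher and 0 lower against both somatic fractions (659 and 492). MSC1 had 2 higher against STO (501), tubular cells 0 higher and 0 lower (455 and 551), germ cells 1 higher (1150) and feeder-grown cells 0 higher (332). Without paralogues 2 of 40 members were higher in laminin-binding cells than in both somatic fractions (1310) and 1 in germ than somatic libraries (1383). With the 32 members under 0.5 of the highest unscaled signal, chosen after seeing the data, 1 was higher in germ than somatic libraries (1383). The other counts and medians, 226 of 242 without leaving out a library, stayed within 1.5 times or the array error.

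Leaving out 1 library at a time, feeder-grown against sorted cells gave 1 to 3 members higher (3 without either sorted library), 10 to 20 lower (20 without the non-binding library) and medians of -0.76 to -0.30. Germ against somatic libraries gave 2 to 5 higher (5 without tubular somatic cells), 3 to 6 lower (6 without laminin-binding and 5 without tubular somatic cells) and medians of -0.29 to 0.069. The STO trend gave 0 to 3 members that fell (3 of 40 without day 1, beside 934 of 16178 probe sets), 0 that rose and median slopes of -0.19 to 0.028. With culture day in place of its log2, 580 probe sets rose and 824 fell, 0 of them members. The cause of these shifts was not tested, and class calls over all genes were not counted with a library left out. No paired analysis was possible because each population has 1 library and no replicate numbers are shared. Signals near 50 carry no order, and signals near the highest of an array may be compressed.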

Other observations

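The 38 probe sets that match several ribosomal protein genes or copies at once, and are therefore not named, were highest in laminin-binding cells and lowest on STO day 20, as the median named gene was. Their median level was 0.58 in laminin-binding cells, 0.06 in non-binding cells, 0.23 on MSC1, 0.14 in interstitial and 0.25 in tubular somatic cells, and -0.32, -0.01, -0.32 and -0.50 on STO day 1, 5, 10 and 20. On MSC1 against STO on day 20 they gave 13 calls higher and 0 lower with a median of 0.73. In laminin-binding against non-binding cells they gave 9 higher and 2 lower with a median of 0.38, and in feeder-grown against sorted libraries 4 higher and 10 lower with a median of -0.62. Against both somatic fractions laminin-binding cells had 2 higher and 4 lower, where the members gave 5 and 1. Between germ and somatic libraries there were 0 higher and 4 lower, at a median of -0.34. Tubular against interstitial cells gave 1 and 1, at -0.03, and STO day 20 against day 1 gave 0 and 3, at -0.22. The shares of all genes in these comparisons are given above. They sit on the same arrays as the members, and a probe set can read the message of a copy named elsewhere.

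Among 14 growth control genes Akt1 and Tsc2 were called higher and Rps6kb1, the S6 kinase gene, lower on MSC1 than on STO on day 20, and Larp1, which binds the terminal pyrimidine run, was called higher in laminin-binding cells than in non-binding cells with Eif4ebp2 and Akt1, and Mtor lower. Mycn, a driver of ribosome production, read 268 on STO day 1, 106 on day 5, 51.0 on day 10 and 16.6 on day 20, and 119 on MSC1.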
